A study of Caenorhabditis elegans with 4 samples.

Results

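The regions described here are the LIN-61 binding peaks of the outer left part of chromosome IV of Caenorhabditis elegans, which runs from the left end of the chromosome to 4.5 Mb and stops where the first piRNA cluster begins. A peak belonged to it when the middle of its start and end lay at or below 4500000 bp on genome build WS220, a rule that uses position and no measured signal. Of the 13662 peaks in the list deposited for the whole series, 1250 met the rule. The same rule took 1201 of 11744 peaks in the list of ChIP replicate 1 and 992 of 9436 in the list of ChIP replicate 2. The animals were wild-type worms of strain N2, a mixed population of males and hermaphrodites grown at 20 degrees Celsius and collected as L3 larvae, so binding in different tissues and sexes is averaged. LIN-61 was pulled down with an affinity-purified rabbit polyclonal antibody (SDQ3520) in 2 ChIP libraries, and input DNA of this strain and stage was sequenced in 2 others, whose data were not analysed here. Any contrast with input therefore rests on the peak calls of the authors. Nothing in the labels ties the replicates to separate cultures, and their spread may be technical. Without read counts in the lists, the depth behind each peak is unknown.

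LIN-61 is a chromatin protein built of MBT repeats, domains that bind methylated histone tails. It recognises the methylated lysine 9 of histone H3, which marks repressed chromatin, and it belongs to the genes whose loss, in combination with others, gives extra vulvae (the synthetic multivulva phenotype). In this worm the autosome arms carry many repeated sequences and much of this histone mark, and they are known to lie near the nuclear envelope and to recombine more often in meiosis than the chromosome centres. Chromosome IV also carries most of the short genes from which the worm's piRNAs, small RNAs that silence foreign sequence in the germ line, are made. The clusters of those genes lie to the right of the stretch described here. No peak sequence is shown, since no genome of build WS220 was used here, and for the same reason the regions are given by coordinate and not by gene.

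The outer left part held more LIN-61 peaks than its length would give, in both libraries. It makes up 25.7% of chromosome IV and held 51.8% of the chromosome's combined peaks (1250 of 2414, 95% Wilson interval 49.8 to 53.8). In replicate 1 it held 55.6% of them, and in replicate 2 58.7%. Peak density was 266.9 peaks per Mb in replicate 1 and 220.4 in replicate 2, against 73.7 and 53.8 on the rest of the chromosome. The part therefore had 3.62 times the density of the rest in replicate 1 and 4.10 times in replicate 2. The mean difference was 179.9 ± 18.7 peaks per Mb (SD, n = 2 libraries), far larger than its spread between libraries. An exact two-sided sign-flip permutation test over the libraries gave p = 0.5, the lowest that 2 libraries can reach, so no comparison between the outer left part and the rest can pass a threshold of 0.05 here. Wilson intervals cover counting error only and treat neighbouring peaks as independent.

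Combined peaks covered 20.0% of the outer left part, replicate 1 peaks 16.7% and replicate 2 peaks 12.0%. On the rest of the chromosome they covered 4.88%, 3.81% and 2.67%. Covered length thus differed more than peak number did, by 4.38 times in replicate 1 and 4.5 times in replicate 2. The first piRNA cluster tract, taken as 4.5 to 7.0 Mb, was covered to 3.32% by combined peaks, to 2.71% by those of replicate 1 and to 1.49% by those of replicate 2, less than the average of the rest of the chromosome. At the other end of the chromosome, the last 4.5 Mb held 537 combined peaks, 452 in replicate 1 and 365 in replicate 2. They were covered to 7.45% by combined peaks, 5.81% by those of replicate 1 and 4.61% by those of replicate 2. The limits of the other piRNA clusters were not set here, so this end may hold part of them. The value of the first tract therefore does not stand for all clusters. The last 4.5 Mb raise the average of the rest of the chromosome. The first piRNA cluster tract was not compared with the rest without this end, so its lower coverage is not shown to be particular to the tract.

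**Figure D1:**
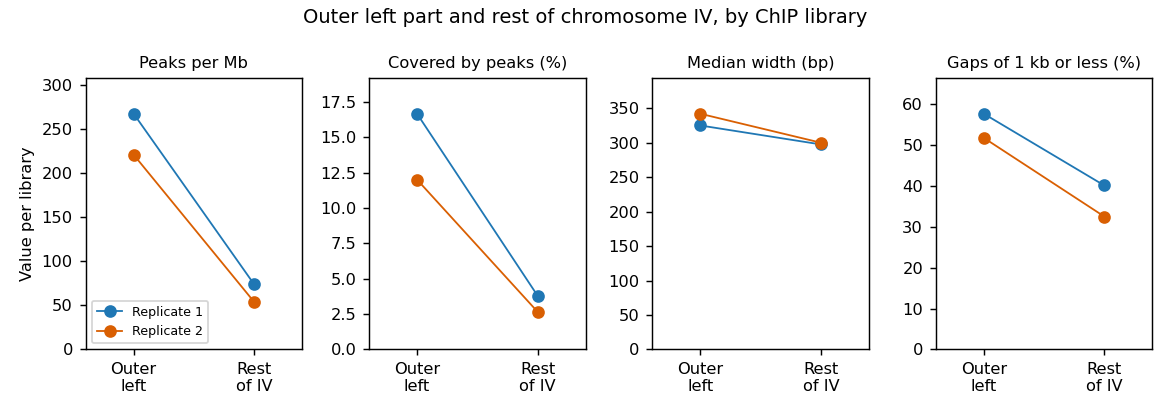
Values of the outer left part and of the rest of chromosome IV in each ChIP library: peaks per Mb, percent of sequence covered by peaks, median peak width in bp and percent of gaps between neighbouring peaks of 1 kb or less. Each line joins the values of 1 library; both libraries are higher in the outer left part in all 4 panels, with median widths of 325 and 342 bp against 297.5 and 300.0 bp.

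Set beside the first 4.5 Mb of the other autosomes, the left end of IV was among the densely bound ones. Combined peaks numbered 1402 on I, 1334 on III, 1250 on IV, 786 on II and 566 on V. By covered length IV ranked 2 in the combined list and in both replicates, below III, which was covered to 22.2%, 19.8% and 13.8%. The order of I and IV by peak number depended on the list: I held more peaks in the combined list, and IV held more in replicate 1 (1201 against 1172) and in replicate 2 (992 against 942). The left ends of II and V were below that of IV by number and by covered length in all 3 lists. These differences between chromosomes were not tested.

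Binding was not spread evenly over the 4.5 Mb, and the lists shared its broad outline. Between neighbouring 100-kb windows, coverage moved in the same direction in both replicates in 36 of 44 steps. Reading from the left end, the first 0.8 Mb were thinly bound, 0.8 to 3.4 Mb formed a dense stretch, 3.4 to 4.0 Mb were sparse again and the last 0.5 Mb before the piRNA cluster rose once more. These limits were chosen after the values of 100-kb windows had been seen and serve as description only. The dense stretch made up 57.8% of the length and held 77.3% of the combined peaks. It took in 80.4% of the replicate 1 peaks and 82.2% of the replicate 2 peaks. It was covered to 28.7%, 24.2% and 17.6% in the 3 lists. The outermost 0.8 Mb were covered to 5.74%, 4.06% and 2.73%, values nearer to those of the rest of the chromosome than to those of the dense stretch. The stretch from 3.4 to 4.0 Mb was covered to 6.43%, 4.62% and 3.26%, and the last 0.5 Mb to 14.0%, 11.9% and 8.07%.

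The step into the dense stretch was abrupt. The window from 700001 to 800000 held 10 combined peaks and was covered to 7.39%, while the next, from 800001 to 900000, held 57 peaks and was covered to 36.5%. In replicate 1 the same windows held 10 and 55 peaks, and in replicate 2 they held 7 and 35. Within the dense stretch the combined coverage of a window ranged from 12.6% to 47.5%, so it was itself made of richer and poorer blocks.

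**Figure D2:**
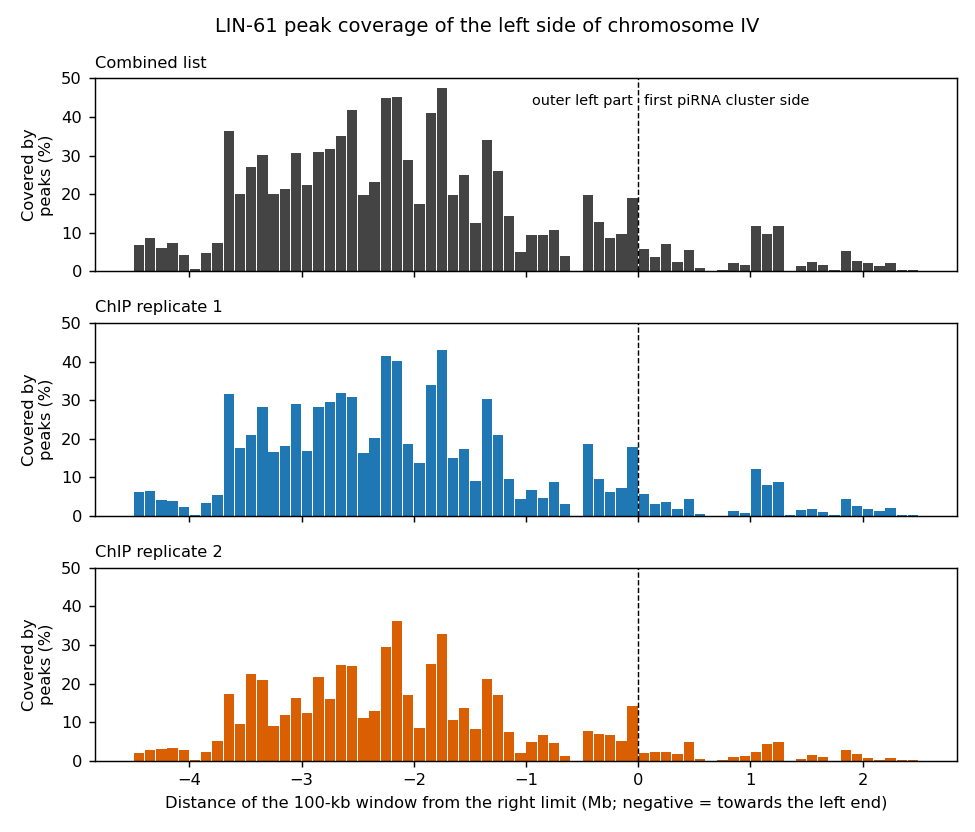
Percent of each 100-kb window covered by LIN-61 peaks in the combined list and in each ChIP replicate, by distance in Mb from the 4.5-Mb limit (dashed line; negative values lie towards the left end of the chromosome). The 3 panels share a low outermost 0.8 Mb, a dense stretch with windows up to 47.5% in the combined list and an empty window 0.6 to 0.5 Mb before the limit, and beyond the limit the combined windows shown stay at or below 11.7%.

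The 5 most covered windows all lay in the dense stretch, whose limits were drawn from these same values. Each was among the 7 most covered in replicate 1 and the 6 most covered in replicate 2. The window from 2700001 to 2800000 was covered to 47.5% in the combined list and ranked 1 in replicate 1 (42.9%) and 2 in replicate 2 (32.9%). The window from 2300001 to 2400000 followed with 45.1%, and it ranked 3 in replicate 1 (40.3%) and 1 in replicate 2 (36.1%). Its left neighbour, from 2200001 to 2300000, was covered to 45.0%, with rank 2 in replicate 1 and 3 in replicate 2. The last 2 of these windows adjoin, and in each of them peaks covered nearly as much sequence as they left free. The next were 1900001 to 2000000 with 41.7% and 2600001 to 2700000 with 40.9% of the sequence in combined peaks.

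Of the 45 windows, 1 was empty in all 3 lists, from 3900001 to 4000000. The other windows of lowest coverage were 500001 to 600000 (0.67% by combined peaks, 0.19% by replicate 1 and 0.32% by replicate 2), 3800001 to 3900000 (3.86%), 400001 to 500000 (4.33%) and 600001 to 700000 (4.71%). Across the 45 windows the coverage of the replicates was correlated with Spearman's rho of 0.96, given as a description, since the windows come from the same 2 libraries and the same genome sequence. Replicate 1 had the higher coverage in 39 windows and replicate 2 in 5. The ratio of covered length in replicate 2 to that in replicate 1 was 0.72 over the outer left part and 0.69 over all nuclear chromosomes, so the lower coverage of replicate 2 was of about the same size in both.

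The empty window lay in the widest gap of chromosome IV. No combined peak was called between 3822622 and 4014440, a run of 191819 bp or 4.26% of the outer left part. The matching gap was 191915 bp in replicate 1 and 206129 bp in replicate 2. In the combined list it was the widest gap between neighbouring peaks on chromosome IV and ranked 5 among those of the 5 autosomes. Within the outer left part, the next widest gaps were 91825 bp from 529143 to 620967, empty in both replicates, and 72451 bp from 3426092 to 3498542, where replicate 2 had 1 peak. The lists do not say which sequences could be mapped, so a gap is reported here only as a run without peaks.

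Elsewhere the peaks stood close together. The median gap between neighbours was 756 bp for combined peaks, 733 bp for those of replicate 1 and 906 bp for those of replicate 2, against 2267, 2389 and 5012.5 bp on the rest of the chromosome. Of 1249 combined gaps, 700 were 1 kb or less (56.0%, 95% Wilson interval 53.3 to 58.8). Over all nuclear chromosomes the share was 49.1%. In the first 4.5 Mb of the other autosomes it was 61.0% on III, 54.6% on II, 54.1% on I and 47.3% on V, so the spacing at the left end of IV lay within the range of the other left ends. In replicate 1 the share was 57.7% in the outer left part and 40.1% on the rest of the chromosome, and in replicate 2 it was 51.8% and 32.5% (exact sign-flip permutation test over 2 libraries, p = 0.5, the smallest possible). A stretch with more peaks has shorter gaps for that reason alone, and clustering beyond density was not tested.

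Joining peaks with gaps of 1 kb or less gave 550 tracts, of which 304 were single peaks. The 64 tracts of at least 5 peaks held 473 peaks, or 37.8% of the total. Matching shares of single and larger tracts over the whole series were not computed. Tracts of 10000 bp or more numbered 24, and 22 of them lay in the dense stretch. The longest ran over 18974 bp from 2215739 to 2234712, with 8 combined peaks that filled 91.5% of it. Replicate 1 covered it to 84.7% with 10 peaks and replicate 2 to 63.3% with 16 peaks. The next were 17970 bp from 2763703 to 2781672 with 6 combined peaks, and 16405 bp from 2359690 to 2376094 with 12. In the last of these, the replicates covered 59.7% and 53.0% of the tract.

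Combined peak widths ran from 146 bp, the smallest width in each list, to 13108 bp. The median was 390 bp, with quartiles at 218 and 830.5 bp. On the rest of the chromosome the median was 299 bp. The difference was smaller in the replicate lists, at 325 against 297.5 bp in replicate 1 and 342 against 300.0 bp in replicate 2. The mean difference was 34.8 ± 10.3 bp (SD, n = 2 libraries), with the exact permutation p of 0.5 named above. Over the first 4.5 Mb of the other autosomes, combined medians were 400 bp on III and 368 bp on II. They were 351 bp on I and 298 bp on V, so IV lay within their range.

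Wide peaks were few but held much of the bound sequence. In the combined list 72 of 1250 peaks were at least 2 kb wide (5.76%, 95% Wilson interval 4.60 to 7.19), where the share over all combined peaks was 4.57%. These 72 peaks made up 31.7% of the bases in peaks. The same share was 23.3% on the rest of the chromosome. In the first 4.5 Mb of the other autosomes it ran from 22.2% on V to 35.9% on III. In replicate 1 it was 27.1% against 21.6% on the rest of the chromosome, but in replicate 2 it was 15.7% against 19.1%. At the other end of the combined list, the 731 peaks under 500 bp made up 58.5% of the peaks and 21.6% of the bases. All 72 wide peaks overlapped a peak of both replicates, as did 95.3% of the outer left peaks from 1000 to below 2000 bp. A wide peak meets the overlap rule of 1 bp more easily than a narrow one. The share among the wide peaks of the whole series was not computed. In replicate 1, 50 peaks reached 2 kb (4.16%, against 3.88% of all its nuclear peaks), and in replicate 2 it was 22 (2.22%, against 2.26%). The share of wide peaks minus that of the rest of the chromosome was 0.61 percentage points in replicate 1 and -1.07 in replicate 2 (exact sign-flip permutation test over 2 libraries, p = 1), so the replicates did not share a direction. Of the wide combined peaks, 63 lay in the dense stretch, 6 in the last 0.5 Mb, 2 between 3.4 and 4.0 Mb and 1 in the outermost 0.8 Mb.

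Combined peaks overlapped several replicate peaks more often than the reverse. Of 992 combined peaks that overlapped replicate 1, 136 overlapped 2 or more of its peaks (13.7%), and of 718 that overlapped replicate 2, 161 did (22.4%). Few replicate peaks spanned several combined ones, 25 of 1141 from replicate 1 (2.19%) and 5 of 989 from replicate 2 (0.51%). Shares of this kind were not computed for the whole series, so they are not shown to be particular to this part. Among the 72 wide peaks, which were chosen by their width in the combined list, the median number of overlapping peaks was 2 in replicate 1 and 3 in replicate 2, with up to 6 and 12. Narrower peaks with both replicates mostly matched a single peak in each, in 499 of 581 cases for replicate 1 and 484 of 581 for replicate 2. The replicates covered a median of 96.0% and 77.3% of the length of a wide peak.

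The widest peak, at 1848229 to 1861336, spanned 13108 bp with a combined score of 53.2. Replicate 1 covered 97.7% of it with 3 peaks and replicate 2 covered 87.5% with 12. It ranked 88 by score among the 1250, inside the best-scoring 125. The next widest were 11299 bp at 2305984 to 2317282, 11120 bp at 1647502 to 1658621 and 10529 bp at 3105154 to 3115682, with scores of 94.9, 91.5 and 79.7. The site at 1647502 was called as a single peak of 10883 bp in replicate 1 and as 9 peaks in replicate 2. The fifth widest, 9065 bp at 4467498 to 4476562, lay close to the limit and was a single peak in both replicates, of 8905 bp and 8630 bp.

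The authors' peak caller gave each peak a score, whose quantity the files do not name, and it was used here to rank peaks and describe medians within a list. Combined scores of the outer left part ran from 1.33 to 145.35 with a median of 10.25, against 7.18 on the rest of the chromosome. The median was 8.61 against 6.90 in replicate 1 and 7.95 against 7.39 in replicate 2. Over the first 4.5 Mb of the other autosomes, combined medians were 12.9 on III, 11.54 on II and 7.83 on I and V. Medians at the left ends of III and II were above that of IV in both replicates too, and those of I and V below. The outer left part held 9.15% of all combined nuclear peaks and 10.5% of the stronger 50%. In replicate 1 these shares were 10.2% and 11.1%, and in replicate 2 they were 10.5% and 10.7%. Of the strongest 1%, it held 15 of 137 combined peaks, 9 of 117 in replicate 1 and 6 of 94 in replicate 2. These last shares were 10.9%, 7.69% and 6.38%, above the share of all peaks in the combined list and below it in the replicates, and the 95% Wilson interval of each took in the share of all peaks. Width and score rose together within each list, with Spearman's rho of 0.73 over the 1250 combined peaks, a description over peaks called in the same libraries.

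**Figure D3:**
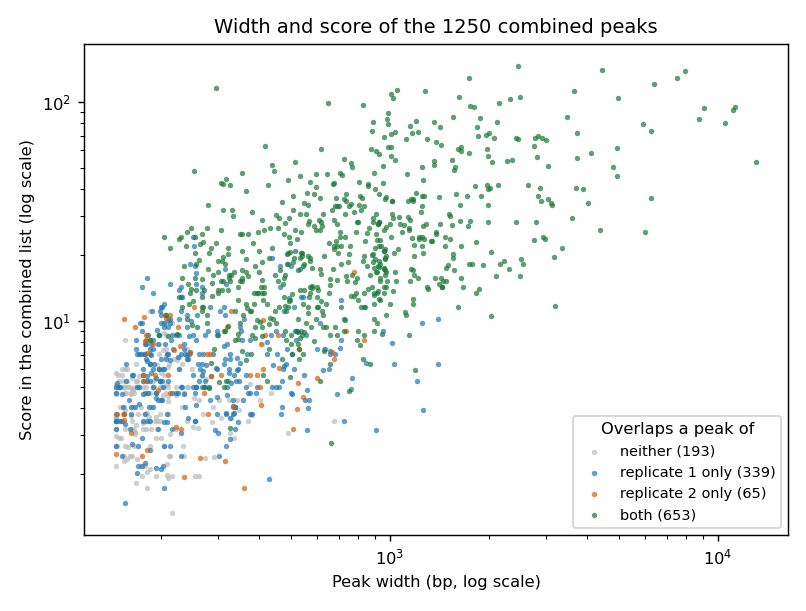
Width in bp and score of the 1250 combined peaks of the outer left part, both on log scales, coloured by the replicate lists in which each peak had an overlapping peak. The 653 peaks found in both replicates take the wide and strong side, up to 13108 bp and a score of 145.35, and the 193 found in neither lie at the narrow and weak corner, none above 674 bp or a score of 11.10.

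Replicate support differed with the width of a peak. Of the 1250 combined peaks, 653 overlapped a peak of both replicates by at least 1 bp (52.2%, 95% Wilson interval 49.5 to 55.0), where 45.3% of all combined peaks did. The full lengths of these 653 made up 81.4% of the bases in peaks. Base by base, 52.9% of the 901696 bp in combined peaks lay under peaks of both replicates, 26.7% under replicate 1 only, 6.73% under replicate 2 only and 13.8% under neither. A further 339 overlapped replicate 1 only (27.1%, against 26.5% of all combined peaks), 65 replicate 2 only (5.20%, against 7.86%) and 193 neither (15.4%, against 20.3%). On the rest of chromosome IV, 39.9% overlapped both and 21.6% neither. Peaks found in both had a median width of 760 bp and a median score of 20.75, and those found in neither had 187 bp and 4.06.

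Replicate support rose with score both inside and outside the outer left part. The combined list is taken to come from the same libraries as the replicate lists. Support is therefore not independent of combined score or width, and the rise is a description. The limits that split its 1250 peaks into 4 score classes of nearly equal size were applied to both groups. In the weakest class 2.59% of the outer left peaks and 1.49% of the other chromosome IV peaks overlapped both replicates. In the next classes the shares were 23.4% and 23.3%, then 82.4% and 79.9%, and in the strongest class 99.4% in each. The share found in neither replicate was 14.4% and 18.1% in the second class. The difference between the groups within a class was not tested. The strongest class took in 316 of the outer left peaks and 177 of the 1164 others, so the groups differed in how many peaks each class held.

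**Figure D4:**
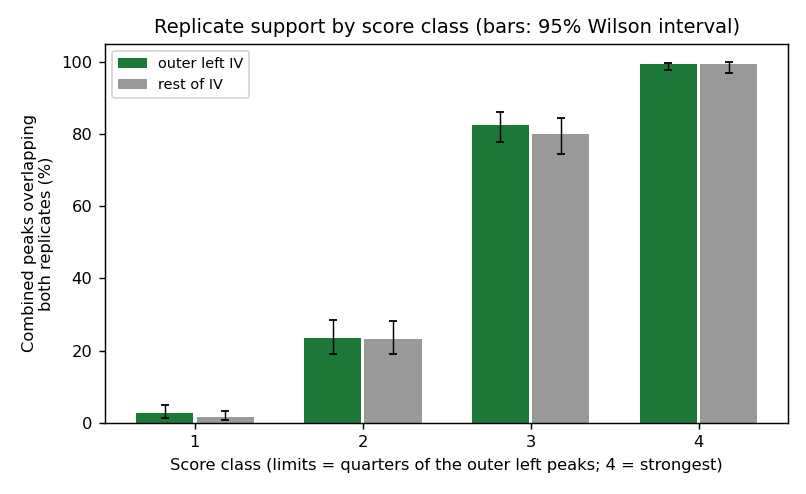
Percent of combined peaks that overlap a peak of both replicates, in 4 score classes, for the outer left part and the rest of chromosome IV; error bars are 95% Wilson intervals. In both groups the share rises from under 3% in the weakest class to 99.4% in the strongest.

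Seen from the replicates, 753 of 1201 peaks of replicate 1 had a partner in replicate 2 (62.7%, 95% Wilson interval 59.9 to 65.4), where 59.1% of all its nuclear peaks had one. In replicate 2, 893 of 992 peaks had a partner in replicate 1 (90.0%, 88.0 to 91.7), where 85.0% of all its peaks did. On the rest of chromosome IV the shares were 53.9% and 77.8%, lower by 8.84 and 12.2 percentage points (exact sign-flip permutation test over 2 libraries, p = 0.5, the smallest possible). Both differences come from the same overlaps between the libraries and are not separate replicates. The test therefore cannot decide here, and the shared direction is not independent agreement. A denser list overlaps more by position alone, and no share expected from density was computed. Over 706 pairs of overlapping replicate peaks, each peak used once, Spearman's rho of the scores was 0.71, a description without a test, since paired peaks share their place in the genome and need not be independent. Of the 20 best-scoring peaks of replicate 1, all had a partner in replicate 2, and 13 overlapped one of its own best 20. Matching counts for the best-scoring peaks of the whole lists were not computed, so these are not shown to be particular to this part.

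The strongest sites were named by a rule, the 10 highest-scoring combined peaks with both replicates. The first was a peak of 2463 bp at chromosome IV, 2254891 to 2257353, with a combined score of 145.35, rank 10 in the whole series. Its replicate peaks scored 186.56 and 93.87, rank 1 and rank 2 among the outer left peaks of their lists. It was a compact site, called as a single peak in each library.

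A pair of neighbours followed, both in a tract of 5 peaks and 15770 bp that ran from 2704147 to 2719916. The peak at 2704147 to 2708580 was 4434 bp wide with a combined score of 140.12, and scored 153.93 in replicate 1 and 110.25 in replicate 2, where it was the strongest of the outer left part. Its neighbour from 2711998 to 2719916 measured 7919 bp and scored 138.26, rank 2 in replicate 1 and rank 3 in replicate 2. Both were single peaks in each replicate, so these broad sites were not pieced together by the combined list. A further site of the rule, 6396 bp at 2765928 to 2772323 with a score of 120.74, lay in the same 100-kb window. Its replicates differed more, with rank 4 in replicate 1 and rank 28 in replicate 2, where it was split into 3 peaks.

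The remaining sites were spread along the 4.5 Mb. Those at 2600351 to 2607863 (7513 bp, score 128.99), 3350313 to 3352057 (1745 bp, 129.21), 1623959 to 1625011 (1053 bp, 113.45) and 1233686 to 1234966 (1281 bp, 111.66) lay in the dense stretch. The site at 4212702 to 4216332 (3631 bp, 112.56) lay in the last 0.5 Mb and ranked 12 in both replicates. The site at 390327 to 390620 lay in the thinly bound outermost 0.8 Mb and was the narrowest of the set, at 294 bp. Its combined score of 116.18 was matched by 143.70 in replicate 1 (rank 6) and 84.59 in replicate 2 (rank 4). Narrow peaks of such rank were rare: of the 125 best-scoring combined peaks, 12 were under 500 bp, and after this site the best of them scored 63.06.

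Of the 125 best-scoring peaks, 108 lay in the dense stretch (86.4%, against 77.3% of all peaks). The others were 10 in the last 0.5 Mb, 4 in the outermost 0.8 Mb and 3 between 3.4 and 4.0 Mb. The limits of the dense stretch were drawn from coverage in these same lists, so this share is a description. Support by both replicates was 55.3% in the dense stretch (95% Wilson interval 52.1 to 58.4) and 49.0% in the last 0.5 Mb (39.2 to 58.8). It was 39.2% in the outermost 0.8 Mb (30.3 to 48.9) and 37.2% between 3.4 and 4.0 Mb (27.7 to 47.8). Median combined scores were 11.54 in the dense stretch, 8.67 in the last 0.5 Mb, 8.02 in the outermost 0.8 Mb and 8.56 between 3.4 and 4.0 Mb. The last 0.5 Mb thus had a median score near that of the thinly bound stretches. Its share with both replicates was higher than theirs, with an interval that overlapped theirs. The difference between stretches was not tested.

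At the left tip, the first combined peak spanned 246 bp from 17275 to 17520 with a score of 7.16, and it had a partner in replicate 2 only. The combined peaks just inside the 4.5-Mb limit were the wide site at 4467498 described above and a peak of 367 bp at 4480600 to 4480966 with a score of 11.41. Those just outside were 614 bp at 4510728 to 4511341 with a score of 41.20, found in both replicates, and 173 bp at 4513590 to 4513762 with a score of 4.91, found in neither. Coverage was 19.0% in the last 100-kb window inside the limit and 5.91% in the first one beyond it, with 14 and 11 combined peaks. Without the wide site the window inside the limit was covered to 9.95%, and the pair of windows before it were covered to 9.70% and 8.69%.

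The strongest combined peaks without a peak in either replicate were narrow and of middling rank. They lay at 3533100 to 3533285 (score 11.10), 1479345 to 1479550 and 1789207 to 1789423 (both 9.83), 2389073 to 2389277 (8.77) and 127657 to 127864 (8.61). Their widths were 186 to 217 bp and their ranks 588 to 694 of the 1250, so no combined peak of the outer left part above rank 588 was missing from both replicates.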

How the data were processed

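LIN-61 ChIP-seq was read from 3 peak lists, 1 for each ChIP replicate and 1 for the series. Per the file headers, the authors called binding sites with MACS on build WormBase WS220; the version and threshold of MACS, the control, aligner and filters, and the making of the series list were not given in the sources used here. Deposited lists give positions and, for each peak, a score of unnamed quantity, used to rank peaks and describe medians within a list. Per the labels' protocols, chromatin was fixed with EGS and formaldehyde and sonicated, and libraries were amplified by PCR.

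Samples were grouped by title. Peaks were placed by their centre, and the right end of the chromosome was set at the last base under a peak, 17493793. Overlap meant at least 1 bp. Coverage is the share of bases under a peak. Shares carry 95% Wilson intervals, and libraries were compared by an exact two-sided sign-flip permutation test over 7 measures. The overlap functions recovered the planted state of 1000 simulated peaks, which were set far apart with no more than a single partner each. Overlaps of split or closely spaced peaks were not simulated. The regions named followed a rule: strongest with both replicates, widest, strongest with neither, extreme windows, gaps and tracts, and peaks beside the limits. Members, rules and alternatives were chosen with earlier results of these data known. The 2 peaks on mitochondrial DNA were set aside. Python 3.11.15, numpy 2.4.6, pandas 2.3.3, scipy 1.17.1 and matplotlib 3.10.9 were used.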

Additional observations from a re-analysis of the deposited data

How the results depend on the processing

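Over 12 results and 59 alternative values, 32 were counted as the same and 27 as moved. For the density difference, the same meant an unchanged direction. It was the only result for which a reversal could be counted, and none was. For the other results, the same meant staying within the interval or spread of the main value. The density difference to the rest of the chromosome, 179.9 peaks per Mb, was 166.7 in replicate 2 alone and 193.2 in replicate 1 alone, 101.9 for the stronger peaks of each list and 69.5 for tracts merged within 1 kb; its test cannot pass the threshold. From replicate to replicate, the share of chromosome IV peaks ranged from 55.6% to 58.7%, the share of autosome left-end peaks from 24.8% to 25.1%, coverage from 12.0% to 16.7%, wide peaks from 2.22% to 4.16% and short gaps from 51.8% to 57.7%. The share of chromosome IV peaks was 58.2% for peaks at or above the median score of their list, 44.0% for merged tracts, 58.7% by covered length, 58.4% for combined peaks with both replicates, and 47.8% and 54.0% with the limit at 4.0 and 5.0 Mb. By covered length, the share among autosome left ends was 25.5%. With 50% of the combined peak covered, 40.1% had both replicates and 19.8% neither. With 50% of both peaks overlapping, partners fell to 42.9% in replicate 1 and 51.9% in replicate 2, and rho was 0.77. With each list kept to peaks at or above its median score, rho was 0.64, coverage 16.6%, wide peaks 10.0% and short gaps 41.3%. A width of 1 kb gave 17.6% and a gap of 2 kb gave 70.9%. Stricter or looser limits move shares by construction; for the other shifts the cause was not tested. Outer left minus rest was taken within each ChIP library. Of ChIP against input by replicate number, no paired analysis was possible because it would need peak lists of the input DNA, which were not analysed here. Depth is unknown, so a peak missing from replicate 2 may lie under its threshold.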

Other observations

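A tract on the inner edge of the widest gap was seen almost entirely in 1 library; it was chosen after its values were seen. It ran over 10693 bp from 4018621 to 4029313 on chromosome IV, 4180 bp beyond the end of the gap, and with 15 combined peaks it was the tract with the most peaks in the outer left part. All 15 were weak, with scores from 2.58 to 9.81 and widths from 182 to 1256 bp. Replicate 1 had 11 peaks there and covered 58.0% of the tract. Replicate 2 had 1 peak and covered 2.05%. Of the 15 combined peaks, 10 overlapped replicate 1 only, 2 overlapped replicate 2 only, 3 overlapped neither and 0 overlapped both. The ratio of coverage in replicate 2 to that in replicate 1 was 0.72 over the whole outer left part. Over its last 0.5 Mb the ratio was 0.68. The 100-kb window from 4000001 to 4100000, which includes the tract, was covered to 18.7% in replicate 1 and 7.62% in replicate 2. A difference between the tract and its close neighbours was not tested, nor was a cause.

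Among the 12 narrow peaks under 500 bp that reached the 125 best scores, the ranks of the replicates could differ widely. The peak at 1070405 to 1070819 ranked 212 in replicate 1 and 20 in replicate 2, and the peak at 964545 to 964796 ranked 67 in replicate 1 and 215 in replicate 2. The peak at 390327 to 390620 kept ranks of 6 and 4.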
